A study of Mus musculus with 12 samples.

Results

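Phase II conjugation enzymes attach a polar group to drugs, hormones, bile acids and other small molecules, which makes most of them easier to excrete, and the kidney carries out much of this work in the proximal tubule. The 63 genes described here were all protein-coding genes whose name matched the glutathione S-transferases (Gsta, Gstk, Gstm, Gsto, Gstp, Gstt and Gstz), the sulfotransferases (Sult), the UDP-glycosyltransferases (Ugt) or the N-acetyltransferases *Nat1*, *Nat2* and *Nat8*, of 35275 genes in the table of whole-kidney read counts. There were 21 glutathione S-transferases, 18 sulfotransferases, 21 UDP-glycosyltransferases and 3 N-acetyltransferases. RNA came from the kidneys of 12 C57BL/6J mice at 6 months of age, with 4 mice in each of 3 groups. The study's methods give 2 females and 2 males per group. The WT group carried normal *Pkd1* and *Casp1*. The RC/RC group was homozygous for the hypomorphic RC allele of *Pkd1*, the gene mutated in most autosomal dominant polycystic kidney disease, and develops cysts slowly. The RC/RC:*Casp1*KO group carried the same *Pkd1* alleles and was also homozygous for *Casp1* Del3, a small deletion made with TALENs that removes caspase-1 in every cell type and descends from a single edited line. WT mice with the *Casp1* deletion were not analysed here.

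Glutathione S-transferases couple the tripeptide glutathione to electrophiles, and the conjugates are trimmed at the brush border and acetylated by *Nat8* to mercapturates that leave in urine. Sulfotransferases pass a sulfate from the donor PAPS, and UDP-glycosyltransferases pass a sugar from a UDP-sugar: glucuronic acid for the Ugt1 and Ugt2 families, other sugars for the Ugt3 and Ugt8 families. In mouse kidney many of these genes are known to differ between males and females, under androgens and growth hormone, and several respond to the oxidant sensor Nrf2.

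Between 18019819 and 24869454 reads were counted per mouse, and the 63 genes took 0.376% to 0.566% of them. Levels of a gene across mice are given as CPM, counts scaled by library size and TMM factors over the 12 libraries, and levels of different genes are compared as FPKM, which also divides by gene length. The columns give a mouse number, written here after m, and not a sex. The summed count of the Y-linked genes *Ddx3y*, *Eif2s3y*, *Kdm5d* and *Uty* was 2475 to 4240 in WT mice m4 and m6, RC/RC mice m140 and m143 and RC/RC:*Casp1*KO mice m42 and m70, and at most 9 in the other 6 mice, whose *Xist* counts were 5280 to 17320 against at most 18. Each group therefore held 2 libraries with and 2 without Y-linked reads. The library of RC/RC mouse m139 stood apart in adipose markers: *Adipoq*, *Plin1* and *Cfd*, all 3 detected there with *Cfd* the most abundant, summed to 1177 CPM, against 123 CPM in RC/RC mouse m143, 45.7 CPM in RC/RC:*Casp1*KO mouse m105, 24.1 CPM in WT mouse m4, 23.4 CPM in RC/RC:*Casp1*KO mouse m42 and at most 1.00 CPM in each of the other 7 mice. Counts of calls in the comparisons with RC/RC that change without that library are given below with and without it.

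The targeted genes were looked at first. *Casp1*, the inflammasome protease, had 43, 27, 26 and 30 counts in the WT mice, 87, 73, 79 and 61 in the RC/RC mice and 12, 10, 23 and 14 in the RC/RC:*Casp1*KO mice. The 3 groups did not overlap, and *Casp1* was lower in RC/RC:*Casp1*KO than in RC/RC (log2 fold change −2.35 ± 0.32, SE; edgeR's quasi-likelihood test, adjusted p = 0.00514). Reads outside the small deletion still count toward the gene, so a remainder is no check of the protein. *Pkd1* stood at 53.0 ± 13.8 CPM in WT, 55.2 ± 9.86 CPM in RC/RC and 71.6 ± 12.6 CPM in RC/RC:*Casp1*KO (SD, n = 4 each), and its allele is a coding change that a read count does not show.

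Of the 63 genes, 9 had 0 counts in all 12 mice: *Sult1c1*, the 6 Sult2a genes *Sult2a1*, *Sult2a2*, *Sult2a4*, *Sult2a5*, *Sult2a6* and *Sult2a7*, *Sult3a1* and *Ugt2b36*. Another 9 had some counts but were too low to test, and 45 passed the low-count filter in at least 1 comparison, 42 of them in all 3. The Ugt3 and Ugt8 genes gave a summed 661 ± 98.9 FPKM in WT (SD, n = 4), the Gsta genes 578 ± 437 FPKM, the Gstk, Gsto, Gstt and Gstz genes together 499 ± 51.8 FPKM and the Gstm genes 399 ± 86.1 FPKM. *Ugt3a2*, which uses sugars other than glucuronic acid, was the most abundant single gene at 549 ± 68.0 FPKM in WT and took 17.3% of the summed FPKM of all members over the 12 mice. *Gsta2*, a glutathione transferase with peroxidase activity, came second with 11.2%, followed by *Gstm1* with 9.72% and *Sult1d1*, which sulfates catecholamines and eicosanoids in rodents, with 7.72%. The sums of the Sult1 genes reached 324 ± 36.7 FPKM in WT, while the 12 genes of Sult2 to Sult6 together reached only 2.93 ± 0.553 FPKM in WT. Over all 63 members the summed FPKM was 3098 ± 361 in WT, 2682 ± 57.6 in RC/RC and 2779 ± 238 in RC/RC:*Casp1*KO (SD, n = 4 each). Every WT mouse was above every RC/RC mouse, but the lowest WT mouse, at 2767.3 FPKM, and the highest RC/RC mouse, at 2766.5 FPKM, were nearly equal.

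**Figure D1:**
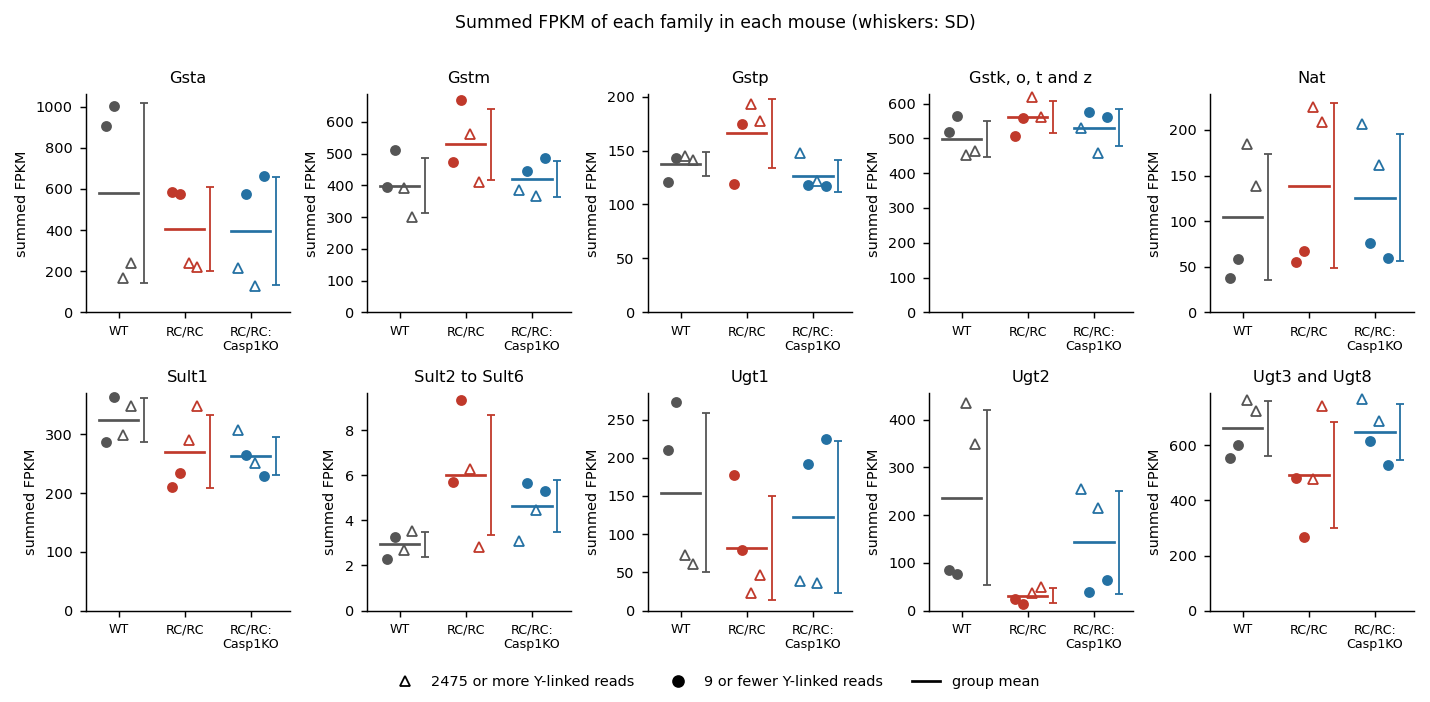
Summed FPKM of each family in each mouse, by group. Points are mice, open triangles mark libraries with Y-linked reads, lines are group means and whiskers the SD (n = 4, drawn no lower than 0). The Ugt2 sum, in WT mostly *Ugt2b38*, lies between 13.3 and 48.9 FPKM in RC/RC and above 76 FPKM in every WT mouse. The Gsta, Nat, Ugt1 and Ugt2 sums split by Y-linked reads within each group.

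The family sums differed most in the Ugt2 genes. The Ugt2 sum was 76.4 to 436 FPKM in WT, 13.3 to 48.9 FPKM in RC/RC and 39.7 to 255 FPKM in RC/RC:*Casp1*KO, so WT and RC/RC did not overlap while RC/RC and RC/RC:*Casp1*KO did. A single gene, *Ugt2b38*, carried this difference. It gave 210 of a mean Ugt2 sum of 236 FPKM in WT, 0 of 31.0 in RC/RC and 101 of 143 in RC/RC:*Casp1*KO. The other Ugt2 genes together were thus not lower in RC/RC on average. The sum over all Ugt genes was 1052 ± 189 FPKM in WT, 604 ± 203 FPKM in RC/RC and 916 ± 110 FPKM in RC/RC:*Casp1*KO, also with no overlap between WT and RC/RC (849 to 1273 against 361 to 837 FPKM). The sum over all Gst genes was 1614 ± 549, 1662 ± 250 and 1470 ± 357 FPKM in the same order, with overlapping ranges. In whole tissue, fewer cells of a type and less RNA per cell cannot be told apart, and this holds for every difference below. These sums of FPKM were described and not tested, and sums of counts over the Ugt1a and the Ugt2b genes are tested below.

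RC/RC kidneys were compared with WT kidneys to ask which conjugation enzymes differ in the cystic kidney. Of 44 members tested, 4 were higher in RC/RC, namely *Ugt2a3*, *Sult4a1*, *Sult2b1* and *Gstm5*, and 1 was lower, *Ugt2b38*. Without RC/RC mouse m139, 2 were called higher, *Ugt2a3* and *Sult4a1*, and 1 lower, *Ugt2b38*. Of all 15243 genes tested, 9.76% were called higher and 3.18% lower. The median log2 fold change of the members was −0.08, against −0.02 over all genes tested, and 5 members did not overlap between the groups, while 19.6% of all genes tested did not. The share of members called was thus near that of the whole table, and the changes lay in single genes. The members' standard errors were larger than those of other genes (median 0.36 against 0.19 on the log2 scale).

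**Figure D2:**
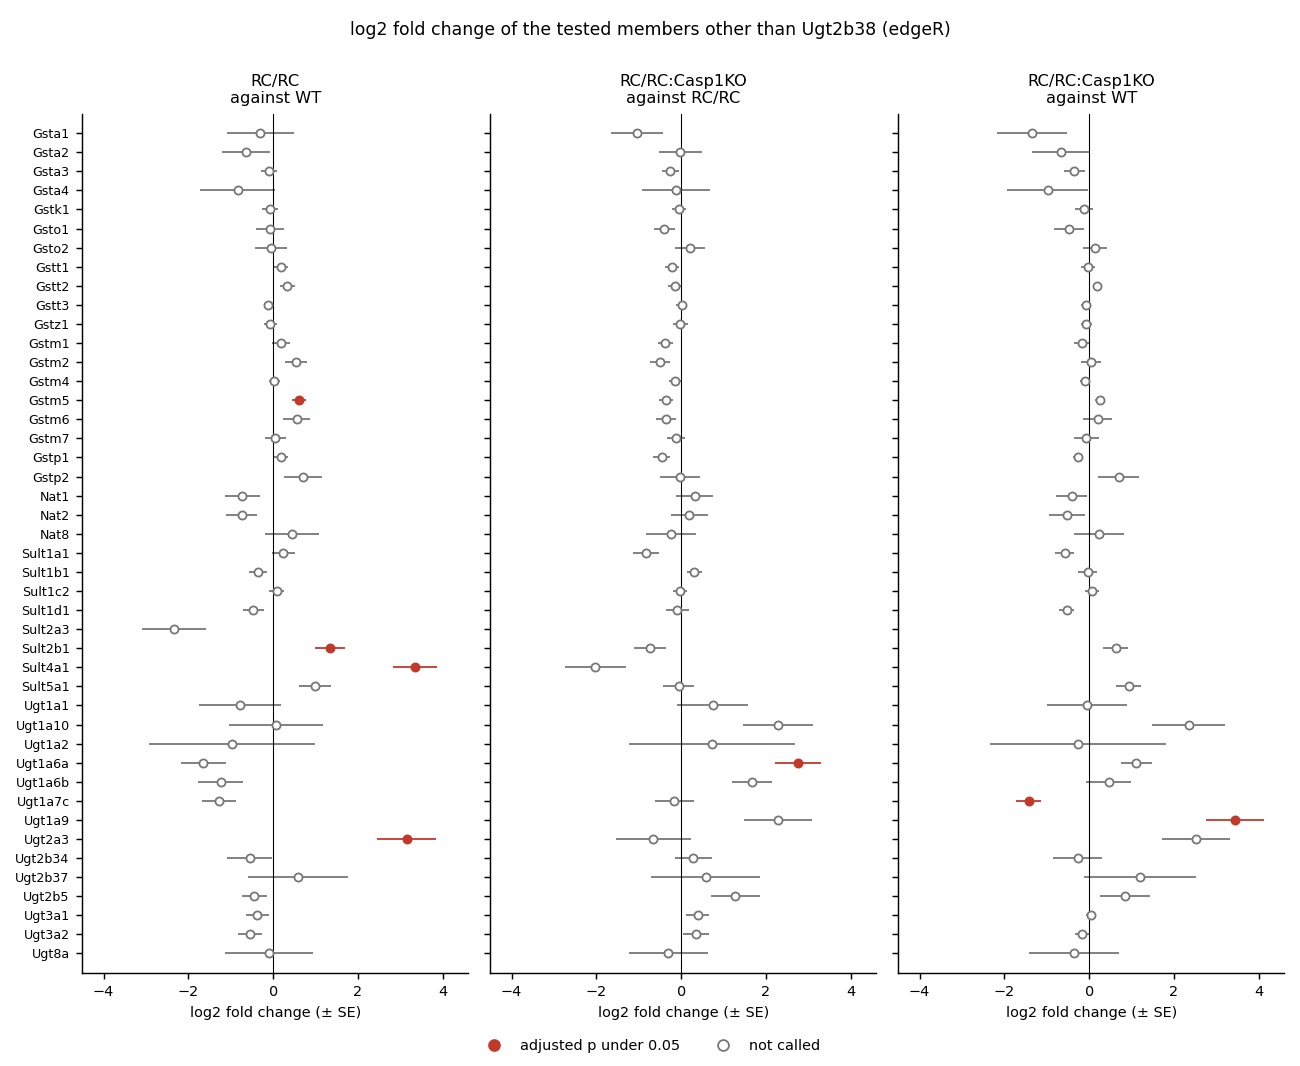
log2 fold change (x axis, bars are ± 1 SE from edgeR) of each tested member other than *Ugt2b38* in the 3 comparisons, ordered by family. Filled red points passed the adjusted p threshold of 0.05; *Gstm5*, *Sult2b1*, *Sult4a1* and *Ugt2a3* lie to the right in RC/RC against WT, *Ugt1a6a* in the *Casp1*KO group against RC/RC, and *Ugt1a9* and *Ugt1a7c* on opposite sides in RC/RC:*Casp1*KO against WT. *Ugt2b38* is left out because RC/RC has no counts and its fitted value is no estimate of size.

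*Ugt2b38* encodes a glucuronosyltransferase of the cluster on chromosome 5 (5:87409942-87424203 on mm10, minus strand) that acts on steroids and other lipophilic substrates. It was counted at 113, 96.2, 795 and 660 CPM in WT mice m2, m3, m4 and m6, at 0 counts in all 4 RC/RC mice, and at 394, 28.7, 268 and 65.1 CPM in RC/RC:*Casp1*KO mice m42, m60, m70 and m105. WT had 2020 to 15806 raw counts and RC/RC:*Casp1*KO 752 to 7102. Against a floor of 3 counts per RC/RC library, 0.141 CPM on average, the WT mean was at least 2955-fold higher and the RC/RC:*Casp1*KO mean at least 1342-fold higher. It was lower in RC/RC than in WT (edgeR, adjusted p = 0.00251) and higher in RC/RC:*Casp1*KO than in RC/RC (edgeR, adjusted p = 0.00877), with adjusted p at most 0.0082 and 0.0265 over all alternatives that tested it. Between RC/RC:*Casp1*KO and WT the groups overlapped, with WT 2.20 times higher on average. It was not called there, while a fit with a Y-linked covariate, described below, called it lower (−1.13 ± 0.24, edgeR, adjusted p = 0.0254).

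The 0 in RC/RC did not extend to its neighbors. *Ugt2a3*, which ends 72.7 kb from *Ugt2b38*, stood at 2.70 to 19.5 CPM in RC/RC. *Ugt2b37*, at 155 kb, stood at 2.75, 2.86, 44.8 and 58.6 CPM in RC/RC mice m105, m139, m140 and m143, and at 1.09 to 41.7 CPM in WT. On the other side, *Sult1d1* at 130 kb stood at 314 to 703 CPM in RC/RC. *Ugt2a1*, the nearest gene at 35.3 kb, had almost no reads in any group. The reference transcripts of *Ugt2b37* and *Ugt2b38* are 93.2% identical over 1893 bases and those of *Ugt2b5* and *Ugt2b38* 95.5% identical over 1892 bases, so reads could in part be placed on either copy, and how multiply placed reads were counted is not given in the sources used here. Summing the 7 Ugt2b genes before the fit gave 224, 227, 865 and 721 CPM in the WT mice, 89.998, 44.4, 75.6 and 103 CPM in the RC/RC mice and 509, 117, 388 and 163 CPM in the RC/RC:*Casp1*KO mice, in the order of mouse numbers. The sum was lower in RC/RC than in WT (log2 fold change −2.71 ± 0.50, edgeR, adjusted p = 0.00777) and higher in RC/RC:*Casp1*KO than in RC/RC (1.90 ± 0.46, adjusted p = 0.0341). The sum of these 7 genes, which holds *Ugt2b38* itself, was thus lower in RC/RC, with every RC/RC mouse below every mouse of both other groups. It is not a sum of the copies of *Ugt2b38* alone. *Ugt2b34*, which is not among its near copies, gave 86.0, 40.7, 29.5 and 42.7 CPM in RC/RC mice m105, m139, m140 and m143. In WT *Ugt2b34* stood at 27.0 to 129 CPM. The part that read placement plays in the 0 at *Ugt2b38* itself was not tested. A difference in the locus itself between the mice bred for each group and a difference in expression cannot be told apart from these counts.

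The start region of *Ugt2b38* is shown beside that of *Ugt2b37*, the nearest copy that kept reads in RC/RC, because 271 of 286 aligned bases (94.8%) are identical while the genes' counts in RC/RC were 0 and 54 to 1367. Each run is the RefSeq promoter window of GRCm38.p6, from 250 bases before to 50 bases after the start, written 5′ to 3′ on the gene's strand; no base is marked, so all are in lower case. The windows lie at chr5:87424154-87424453 and chr5:87254739-87255038, both on the minus strand.
Ugt2b38: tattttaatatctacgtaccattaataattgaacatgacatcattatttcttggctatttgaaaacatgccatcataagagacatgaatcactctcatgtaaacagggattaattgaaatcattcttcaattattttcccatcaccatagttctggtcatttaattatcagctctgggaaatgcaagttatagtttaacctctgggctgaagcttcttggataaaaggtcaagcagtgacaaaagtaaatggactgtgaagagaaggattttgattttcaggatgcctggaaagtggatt
Ugt2b37: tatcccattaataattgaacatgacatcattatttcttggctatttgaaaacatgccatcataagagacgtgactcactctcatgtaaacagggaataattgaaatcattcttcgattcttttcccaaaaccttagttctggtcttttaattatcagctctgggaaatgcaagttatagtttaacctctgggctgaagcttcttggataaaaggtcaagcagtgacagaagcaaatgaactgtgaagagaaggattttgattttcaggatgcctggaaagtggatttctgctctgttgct

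*Ugt2a3*, a glucuronosyltransferase of bile acids, was counted at 0.905, 0.714, 1.86 and 0.989 CPM in WT mice m2, m3, m4 and m6 and at 2.75, 2.70, 14.5 and 19.5 CPM in RC/RC mice m105, m139, m140 and m143. Every RC/RC mouse was above every WT mouse, and the RC/RC libraries with Y-linked reads were the highest. The difference was 3.14 ± 0.71 on the log2 scale (SE, edgeR, adjusted p = 0.0184). The call was lost without WT mouse m3 or WT mouse m6 and in limma on log2(FPKM + 1), with adjusted p between 9.6e-06 and 0.0578 over all alternatives. In RC/RC:*Casp1*KO it stood at 13.1, 2.52, 9.34 and 0.620 CPM in mice m42, m60, m70 and m105, and overlapped both other groups.

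*Sult4a1*, a sulfotransferase-like protein of brain with little known activity, was counted 4, 1, 2 and 3 times in the WT mice and 25, 42, 22 and 18 times in the RC/RC mice. Both groups were low, under 1.0 FPKM in every mouse, and did not overlap. The log2 fold change was 3.34 ± 0.51 (edgeR, adjusted p = 0.00356), and the call held in all 16 alternatives that tested it. *Sult4a1* passed the low-count filter only in the comparisons that hold RC/RC, so its entry depended on the group where it was high. RC/RC:*Casp1*KO mice m42, m60, m70 and m105 had 0, 3, 16 and 8 counts, all below RC/RC. That difference was −2.03 ± 0.72 and did not pass (edgeR, adjusted p = 0.0929), while DESeq2 called it.

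*Sult2b1* sulfates cholesterol and pregnenolone. It stood at 0.953, 1.43, 1.21 and 1.22 CPM in the WT mice and at 2.79, 4.24, 3.92 and 1.37 CPM in RC/RC mice m105, m139, m140 and m143, so that RC/RC mouse m143 lay within the WT range. The log2 fold change was 1.34 ± 0.36 (edgeR, adjusted p = 0.0375). Leaving out any 1 mouse other than RC/RC mouse m143 ended the call, with adjusted p up to 0.108.

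*Gstm5*, a mu-class glutathione transferase prominent in testis and brain, stood at 75.4, 90.3, 65.1 and 69.4 CPM in the WT mice and at 88.9, 111, 140 and 116 CPM in the RC/RC mice. The log2 fold change was 0.60 ± 0.16 (edgeR, adjusted p = 0.0351), the smallest of the 5 called. The lowest RC/RC mouse was below the highest WT mouse, and the call was lost without WT mouse m2, m4 or m6 or RC/RC mouse m139, m140 or m143, with adjusted p up to 0.106. The transcript *4933431E20Rik* overlaps *Gstm5* on the opposite strand, and without a stated strand setting their reads cannot be told apart. RC/RC:*Casp1*KO mice lay at 78.2 to 104 CPM.

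The *Gstm5* start region is shown because it is 1 of the 3 member windows that hold the core of the antioxidant response element, TGAC and GC separated by any 3 bases, on either strand, to which Nrf2 and small Maf proteins bind. The core, in capitals, begins 42 bases before the start, in the window at chr3:107895604-107895903 on the plus strand.
Gstm5: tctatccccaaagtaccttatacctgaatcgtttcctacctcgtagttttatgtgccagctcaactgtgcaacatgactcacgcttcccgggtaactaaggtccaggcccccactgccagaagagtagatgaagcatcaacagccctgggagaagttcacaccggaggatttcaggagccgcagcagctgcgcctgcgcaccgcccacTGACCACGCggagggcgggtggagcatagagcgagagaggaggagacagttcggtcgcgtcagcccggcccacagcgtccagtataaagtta
The element was found in 4.69% of the 64 windows of 53 members (also in those of *Gsta3* and *Gstm7*) and in 12.4% of all 32851 promoter windows. *Gsta3* stood at 153, 176, 97.5 and 107 CPM in the WT mice and at 109 to 138.99 CPM in RC/RC, and *Gstm7* at 8.71 to 20.3 and 11.6 to 15.8 CPM, and neither was called. A match is only a match of letters.

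The 3 members with the largest differences that did not pass were all lower in RC/RC. *Ugt1a7c* was counted at 151 to 243 CPM in WT and 32.9 to 155 CPM in RC/RC (−1.29 ± 0.40, edgeR, adjusted p = 0.0669), with an overlap through RC/RC mouse m143. *Ugt1a6a*, which glucuronidates simple phenols, stood at 1.57 to 3.37 CPM in WT and 0.161 to 1.41 CPM in RC/RC, with no overlap (−1.65 ± 0.53, edgeR, adjusted p = 0.0727). *Sult2a3*, of a family that sulfates steroids and bile acids, had 10 to 18 counts in WT and 0 to 8 in RC/RC, also with no overlap (−2.34 ± 0.75, edgeR, adjusted p = 0.0729). *Sult2a3* passed the low-count filter in this comparison only, through its counts in WT. DESeq2 called these 3 genes lower. Among abundant members, *Ugt3a2* stood at 1136 to 1496 CPM in WT and 486 to 1420 CPM in RC/RC, *Sult1d1* at 536 to 783 and 314 to 703 CPM, and *Gsta2* at 95.8 to 673 and 142 to 332 CPM, and none of these passed. *Gstm1*, *Gstz1* and *Gstt1*, abundant transferases of the mu, zeta and theta classes, differed by 0.19 ± 0.22, −0.07 ± 0.16 and 0.17 ± 0.18 on the log2 scale. *Gstp1*, which also binds kinases, differed by 0.18 ± 0.18, *Ugt3a1* by −0.37 ± 0.26 and *Sult1c2* by 0.08 ± 0.17. *Gsta4* (−0.84 ± 0.88), *Nat8* (0.45 ± 0.64), *Ugt2b37* (0.58 ± 1.18) and *Ugt1a2* (−0.97 ± 1.96) had wide errors. *Nat2* (−0.74 ± 0.36), *Gstp2* (0.70 ± 0.45) and *Sult5a1* (0.98 ± 0.38) did not pass either. A fit with a Y-linked covariate, described below, called *Ugt1a7c*, *Gsta4* and *Nat2* lower and *Ugt2b37* higher.

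RC/RC:*Casp1*KO kidneys were compared with RC/RC kidneys to ask which members differ when caspase-1 is also missing. Of 44 members tested, 2 were higher, *Ugt2b38* and *Ugt1a6a*, and 0 were lower, and the same 2 were called without RC/RC mouse m139. Of all 15428 genes tested, 7.23% were called higher and 4.41% lower. For the lower direction, 4 members had an unadjusted p under 0.05 in edgeR, and DESeq2 called 1, *Sult4a1*. The members' median log2 fold change was −0.06 against −0.03 for all genes, and 5 members did not overlap between the groups, where 20.4% of all genes did not. This comparison shares the RC/RC mice with the one against WT, and the values of a gene in RC/RC enter both.

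*Ugt1a6a* was counted 37, 15, 3 and 10 times in RC/RC mice m105, m139, m140 and m143 and 51, 160, 72 and 149 times in RC/RC:*Casp1*KO mice m42, m60, m70 and m105, with no overlap. In CPM the means were 0.700 ± 0.543 and 4.84 ± 2.09 (SD, n = 4). The log2 fold change was 2.75 ± 0.55 (edgeR, adjusted p = 0.0189), and the call was lost without RC/RC:*Casp1*KO mouse m60 or m105, with adjusted p up to 0.0581. Without RC/RC mouse m105 the log2 fold change was 3.36. WT stood between the other groups at 1.57 to 3.37 CPM, below RC/RC:*Casp1*KO mice m60 and m105 and overlapping mice m42 and m70. *Ugt1a6b*, the neighboring copy, also did not overlap, at 0.268 to 0.815 CPM in RC/RC and 0.840 to 2.94 CPM in RC/RC:*Casp1*KO.

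The largest differences that did not pass were in *Ugt1a10*, *Ugt1a9* and *Sult4a1*. *Ugt1a10* stood at 8.60, 3.76, 0.322 and 0.643 CPM in RC/RC mice m105, m139, m140 and m143 and at 9.76, 22.6, 8.06 and 24.8 CPM in RC/RC:*Casp1*KO mice m42, m60, m70 and m105. Its log2 fold change was 2.28 ± 0.81 (edgeR, adjusted p = 0.0932), and the lowest of the RC/RC:*Casp1*KO mice fell just below RC/RC mouse m105. *Ugt1a9* had 11, 4, 0 and 0 counts in RC/RC and 18, 13, 29 and 11 in RC/RC:*Casp1*KO, in order of mouse number, a log2 fold change of 2.28 ± 0.81 (edgeR, adjusted p = 0.0914). In CPM its groups did not overlap, with at most 0.421 in RC/RC and at least 0.496 in RC/RC:*Casp1*KO. *Ugt1a9* passed the low-count filter only in the comparisons that hold RC/RC:*Casp1*KO, the group where it was high.

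The 9 Ugt1a genes share their last exons and mostly differ in the first, which sets the substrate. The longest reference transcript of *Ugt1a7c* is 100% identical to a transcript of *Ugt1a6a* over 3302 bases. Reads of these 2 genes could thus in part be placed on either, in the first exon as well. In GENCODE vM39 on GRCm39 between 58.1% (*Ugt1a10*) and 86.2% (*Ugt1a6a*) of the exonic bases of each were shared with another Ugt1a gene, so a count for 1 of them depends on how reads in the shared exons were assigned. Summing all 9 gave 533, 710, 248.9 and 212 CPM in the WT mice, 382, 179, 76.6 and 158 CPM in the RC/RC mice and 125, 420, 106 and 477 CPM in the RC/RC:*Casp1*KO mice, and no comparison of this sum passed (edgeR, adjusted p = 0.189, 0.582 and 0.556). The sum followed *Ugt1a2* and *Ugt1a7c*, the 2 abundant genes of the locus, and not the low *Ugt1a6a*, *Ugt1a9* and *Ugt1a10*.

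**Figure D3:**
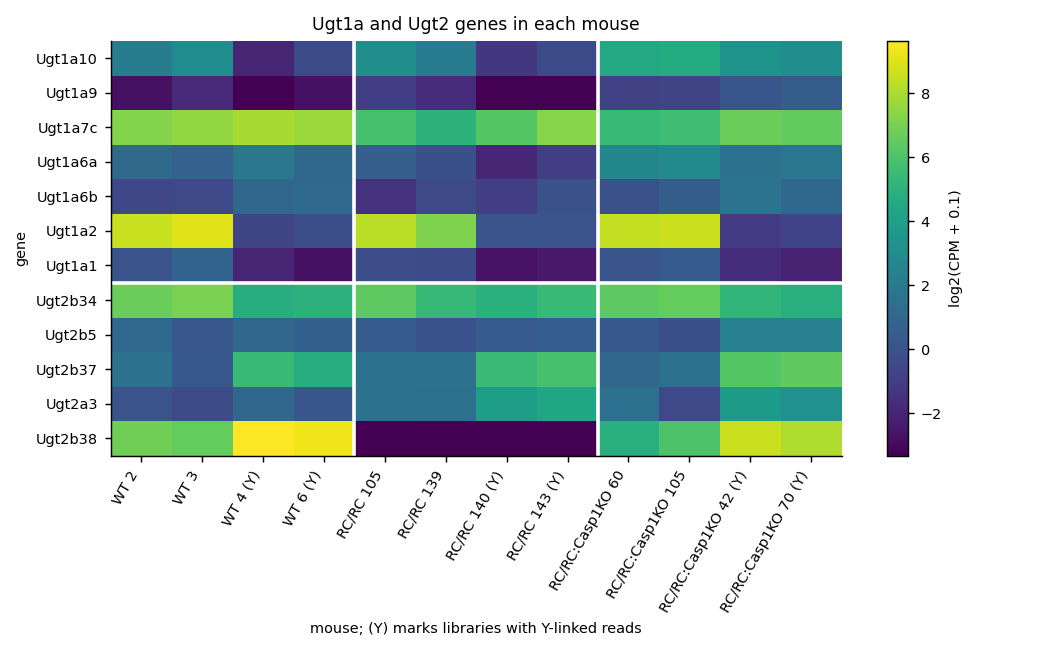
log2(CPM + 0.1) of the tested Ugt1a genes (upper block) and Ugt2 genes (lower block) in each mouse, with libraries that hold Y-linked reads placed last in each group. *Ugt2b38* is dark in the 4 RC/RC columns only, while *Ugt1a2* is bright in the 6 columns without Y-linked reads and *Ugt2b37* brighter in the 6 with them.

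RC/RC:*Casp1*KO kidneys were compared with WT kidneys to ask what remains different when both changes are present. Of 43 members tested, 1 was higher in RC/RC:*Casp1*KO, *Ugt1a9*, and 1 lower, *Ugt1a7c*. Of all 15346 genes tested, 1.13% were called higher and 0.893% lower. The median log2 fold change was −0.07 against 0.01 over all genes, and 3 members did not overlap, where 13.9% of all genes did not. *Ugt1a9* had 1, 4, 0 and 1 counts in WT and 11 to 29 in RC/RC:*Casp1*KO (log2 fold change 3.43 ± 0.69, edgeR, adjusted p = 0.0449). It was too low to test in RC/RC against WT, so its entry here depended on the group where it was high. *Ugt1a7c* stood at 151, 183, 243 and 207 CPM in the WT mice and at 107, 44.0, 90.4 and 50.0015 CPM in RC/RC:*Casp1*KO mice m42, m60, m70 and m105, with no overlap (−1.42 ± 0.29, edgeR, adjusted p = 0.0482). *Ugt1a7c* was also at 80.3 ± 53.0 CPM in RC/RC (SD, n = 4), where it did not pass against WT. Both calls were near the threshold, and 1 fit of all 12 mice ended both. The call of *Ugt1a9* was also lost in limma, and that of *Ugt1a7c* with at least 10 counts in every mouse. The *Ugt1a9* call was kept only without WT mouse m3, where its log2 fold change was 4.47 (adjusted p up to 0.121), and the *Ugt1a7c* call only without RC/RC:*Casp1*KO mouse m42 (up to 0.126) among the 8 fits that left out 1 mouse. The largest differences that did not pass were *Ugt2a3* (2.51 ± 0.80, edgeR, adjusted p = 0.1365), *Ugt1a10* (2.34 ± 0.86, adjusted p = 0.172) and *Gsta1* (−1.34 ± 0.83, adjusted p = 0.366).

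**Figure D4:**
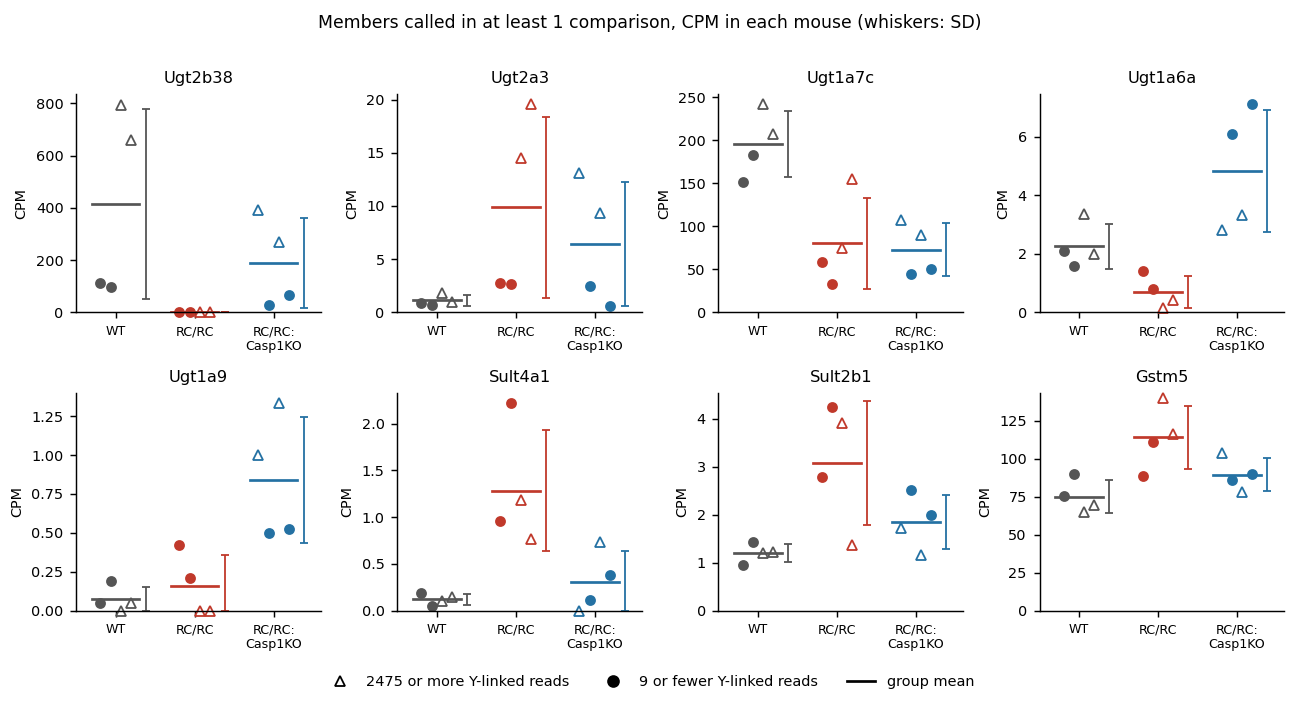
CPM of the 8 members called in at least 1 comparison, in each mouse. Lines are group means, whiskers the SD (n = 4, drawn no lower than 0), and open triangles libraries with Y-linked reads. *Ugt2b38* is at 0 in all RC/RC mice, *Ugt2a3* and *Sult4a1* are above every WT mouse in RC/RC, *Ugt1a6a* is above every RC/RC mouse in RC/RC:*Casp1*KO, and *Ugt1a7c* is below every WT mouse in RC/RC:*Casp1*KO.

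Much of the spread within groups followed the presence of Y-linked reads. Of the 40 members with a mean of 1 CPM or more, 10 (25%) did not overlap between the 6 libraries with and the 6 without Y-linked reads, where 4.83% of all genes at that level did not. *Gstp2*, *Nat8*, *Ugt2b37* and *Ugt8a* were higher in all libraries with Y-linked reads, and *Gsta1*, *Gsta2*, *Gsta4*, *Gsto1*, *Gsto2* and *Ugt1a2* were lower. *Ugt1a2* had 7 to 21 counts in the libraries with Y-linked reads and 2635 to 10811 in the others, a ratio of mean CPM of 511. *Ugt2b37* was 24.2 times higher with Y-linked reads, *Ugt8a*, which makes galactosylceramide, 9.99 times higher, and *Nat8* 3.504 times higher. *Gsta4*, which conjugates the lipid peroxidation product 4-hydroxynonenal, was 7.49 times lower and *Gsta2* 3.31 times lower. These ratios are descriptions over all 3 groups, and no test was made, since libraries were sorted by reads of other genes and not by a label. *Ugt2b38* showed the same split where it was counted: 728 CPM on average in the WT libraries with Y-linked reads against 104 CPM, and 331 against 46.9 CPM in RC/RC:*Casp1*KO.

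**Figure D5:**
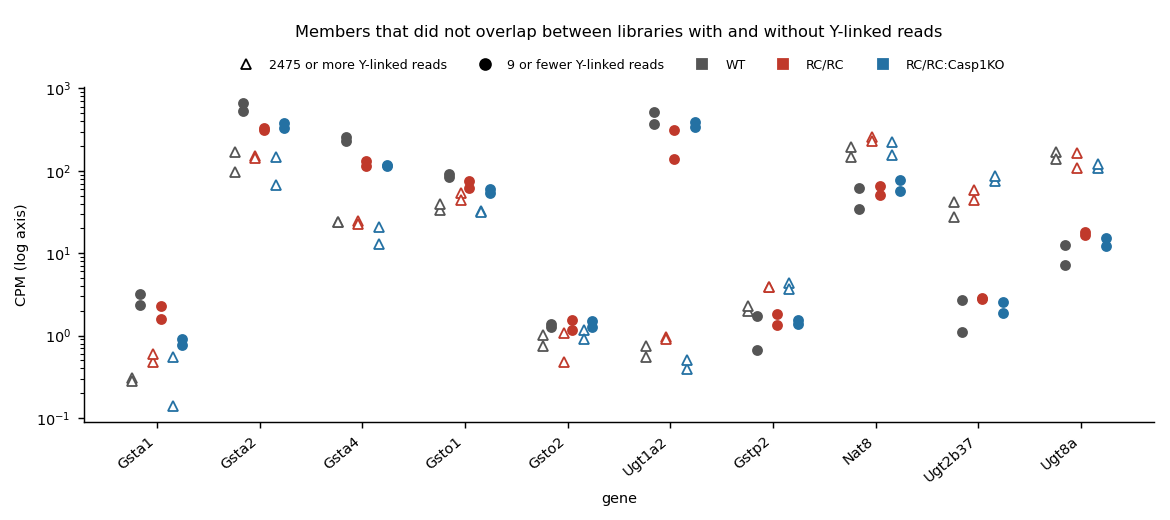
CPM (log axis) of the 10 members that did not overlap between the 6 libraries with Y-linked reads (open triangles) and the 6 without (filled circles), in the 3 groups (colors). *Ugt1a2* lies below 1 CPM in all 6 libraries with Y-linked reads and at 139.5 CPM or more in the others.

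A fit with the summed log2 level of the 4 Y-linked genes as a covariate gave smaller errors. The median standard error of the members fell from 0.36 to 0.23 for RC/RC against WT, from 0.30 to 0.16 for RC/RC:*Casp1*KO against WT, and from 0.37 to 0.22 between both groups with the RC allele. In RC/RC against WT, the covariate fit called 5 members higher, adding *Ugt2b37*, and 4 lower, adding *Ugt1a7c*, *Gsta4* and *Nat2*, while it called 12.1% and 5.75% of all genes. The covariate fit gave log2 fold changes of −1.38 ± 0.29 for *Ugt1a7c*, −0.64 ± 0.14 for *Gsta4* and −0.68 ± 0.18 for *Nat2*, which acetylates aromatic amines. Against RC/RC, in the *Casp1*KO mice, it called 4 members higher, adding *Ugt1a10* (2.81 ± 0.46) and *Ugt1a6b* (1.58 ± 0.39), and 2 lower, *Gsto1* (−0.42 ± 0.12), an omega-class transferase that also reduces dehydroascorbate, and *Ugt8a* (−0.44 ± 0.13), against 9.72% and 7.26% of all genes. In RC/RC:*Casp1*KO against WT it called 3 higher, adding *Ugt1a10* and *Ugt2a3*, and 6 lower, adding *Gsta3*, *Gsta4*, *Gsto1*, *Nat2* and *Ugt2b38* (−1.13 ± 0.24), against 4.66% and 3.77% of all genes. The log2 fold changes of the 4 added besides *Ugt2b38* were −0.36 ± 0.08 for *Gsta3*, −0.80 ± 0.14 for *Gsta4*, −0.41 ± 0.10 for *Gsto1* and −0.60 ± 0.12 for *Nat2*.

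Genes that feed or follow conjugation are led in abundance by *Mgst3*, *Gpx3*, *Acy3*, *Ugp2*, *Papss2*, *Inmt*, *Ces1f*, *Hnf4a* and *Me1*, each the highest in FPKM of its list, and none of these 9 was called in any of the 3 comparisons. Of 8 tested genes of UDP-glucuronate supply, 8 of PAPS supply and 10 of deconjugation, 0 were called by edgeR in any of the 3 comparisons. Of 8 tested glutathione genes, 0 were called in the comparisons with RC/RC, and 2 were lower in RC/RC:*Casp1*KO than in WT: *Gclc*, the rate-limiting subunit of glutathione synthesis (−0.78 ± 0.14, edgeR, adjusted p = 0.0327), and *Gsr*, which recycles oxidized glutathione (−0.66 ± 0.13, 0.0458). Of 18 tested genes of the mercapturate route, *Acy1*, which deacetylates mercapturates, was higher in RC/RC than in WT (235 ± 73.5 against 108 ± 26.3 CPM, SD, n = 4, log2 fold change 1.13 ± 0.26, edgeR, adjusted p = 0.0191) and not called without RC/RC mouse m139. *Dpep1*, the brush border dipeptidase, was lower in RC/RC:*Casp1*KO than in WT (−0.90 ± 0.13, edgeR, adjusted p = 0.0134). Of 5 tested microsomal transferases and relatives, *Alox5ap*, the leukocyte activator of 5-lipoxygenase, was higher in RC/RC than in WT (1.61 ± 0.23, edgeR, adjusted p = 0.00277). Of 13 tested genes of methyl and glycine conjugation, *Nnmt*, which methylates nicotinamide, stood at 3.21, 13.4, 3.54 and 2.66 CPM in RC/RC mice m105, m139, m140 and m143, above 0.424 to 1.52 CPM in WT and 1.22 to 1.61 CPM in RC/RC:*Casp1*KO. It was higher in RC/RC than in WT (2.50 ± 0.60, edgeR, adjusted p = 0.0252) and lower in RC/RC:*Casp1*KO than in RC/RC (−2.04 ± 0.52, adjusted p = 0.0385). Both calls held without RC/RC mouse m139, the highest, at 1.62 ± 0.38 (edgeR, adjusted p = 0.0373) and −1.16 ± 0.23 (adjusted p = 0.0337).

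Among the 18 tested regulators of these genes, *Mafg*, a small Maf partner of Nrf2, was lower in RC/RC than in WT (−0.78 ± 0.19, edgeR, adjusted p = 0.0289) and higher in RC/RC:*Casp1*KO than in RC/RC (0.89 ± 0.11, adjusted p = 0.00305). *Ppara*, a fatty acid receptor, was also lower in RC/RC than in WT (−0.90 ± 0.19, edgeR, adjusted p = 0.0130) and higher in RC/RC:*Casp1*KO than in RC/RC (0.66 ± 0.18, adjusted p = 0.0421). *Arnt*, the partner of the Ah receptor, was higher in RC/RC:*Casp1*KO than in RC/RC (0.41 ± 0.11, edgeR, adjusted p = 0.0434). Both comparisons share the RC/RC mice. Without RC/RC mouse m139, *Mafg* was not called against WT and *Arnt* was not called, while the other calls of *Mafg* and *Ppara* held. Of 11 tested Nrf2 targets outside the families, *Akr1b8* was higher (2.10 ± 0.38, edgeR, adjusted p = 0.00729) and *Srxn1* lower (−0.58 ± 0.15, 0.0334, not called without RC/RC mouse m139) in RC/RC than in WT, 0 were called in the *Casp1*KO group against RC/RC, and *Gclc* and *Pgd* (−0.57 ± 0.10, 0.0281) were lower in RC/RC:*Casp1*KO than in WT.

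Cell type markers moved with the groups. The 14 markers of the proximal tubule, where most members are known to be expressed, were all detected, with *Kap* the most abundant. They summed to 18162 to 43346 CPM in WT, 11176 to 34984 CPM in RC/RC and 20475 to 42850 CPM in RC/RC:*Casp1*KO. This sum split by Y-linked reads, at 29842.8 CPM or more in every library with them and 24380.3 CPM or less in every library without. The markers' median log2 fold change in RC/RC against WT was −0.71 (−0.44 without RC/RC mouse m139). In that comparison *Slc5a2* and *Cubn* were lower (*Slc5a2* alone without that mouse). *Cubn* and *Lrp2* were higher in RC/RC:*Casp1*KO than in RC/RC. Of 6 injured tubule markers, 5 were higher in RC/RC than in WT, among them *Lcn2* (82.1 ± 27.0 against 1.76 ± 0.707 CPM) and *Havcr1* (55.0 ± 20.8 against 1.84 ± 1.07 CPM, SD, n = 4). All 5 fibroblast markers and 6 of 7 leukocyte markers were higher in RC/RC than in WT, and 4 and 1 of them lower in RC/RC:*Casp1*KO than in RC/RC (2 and 0 without RC/RC mouse m139). The injured tubule sum, led by *Spp1*, was 507 to 2138 CPM in WT, 2199 to 5676 CPM in RC/RC and 667 to 2122 CPM in RC/RC:*Casp1*KO. The leukocyte sum, led by *Csf1r*, was 114 to 127.9, 200 to 289 and 140 to 273 CPM in the same order. The fibroblast sum, with *Col3a1* the highest in mean CPM, was 169 to 231 CPM in WT, 626 to 1521 CPM in RC/RC (870 CPM at most without mouse m139) and 242 to 511 CPM in RC/RC:*Casp1*KO. Among distal tubule markers, *Calb1*, *Slc12a3* and *Pvalb* were lower in RC/RC than in WT (3 of 5), and *Slc12a3* was higher in RC/RC:*Casp1*KO than in RC/RC (1.44 ± 0.39, edgeR, adjusted p = 0.0454), a call lost without RC/RC mouse m139. In RC/RC against WT, 0 of 6 collecting duct, 0 of 4 endothelial and 1 of 3 podocyte markers, *Nphs1*, were called. In RC/RC:*Casp1*KO against WT, 1 of 5 fibroblast markers was higher and 1 of 5 distal tubule markers was lower. Of the proximal tubule, injured tubule and leukocyte markers, 0 were called in that comparison. The part of these cell types in the differences of the conjugation enzymes was not tested. The 5 markers of liver, a tissue rich in Ugt and Sult genes, with *Ttr* the highest in FPKM, summed to 329 to 508 CPM in WT, 129 to 296 CPM in RC/RC and 346 to 412 CPM in RC/RC:*Casp1*KO. Of these, *Apob* stood at 82.1 to 411 CPM, *Ttr* at 23.4 to 142 CPM, *Alb* at 4.83 to 24.5 CPM, *Serpina1a* at 58.2 CPM in RC/RC:*Casp1*KO mouse m42 and 0.875 to 22.3 CPM in the other 11 mice, and *Apoa1* at 0.368 to 1.05 CPM over the 12 mice, and 1 was called, *Ttr*, lower in RC/RC:*Casp1*KO than in WT. The 5 adrenal cortex markers, with *Star* the most abundant, summed to at most 5.48 CPM in any mouse.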

How the data were processed

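Poly(A) RNA of whole kidneys was sequenced on an Illumina instrument, and the submitters' processing notes name CASAVA 1.8, STAR and mm10. The authors deposited raw read counts per gene with gene lengths, and the counting tool, annotation and strand setting are not given in the sources used here. The deposited table also holds FPKM values, group means and the authors' own fold changes and p-values of their comparisons, which were not used. Starts of 60 of 63 members lay within 5000 bases of RefSeq on GRCm38, and of 2 of 63 on GRCm39. Columns of other samples numbered 0.

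CPM used TMM factors over 12 libraries. FPKM was computed from counts, gene lengths and reads counted per mouse. Each pair of groups was fitted on the whole table with edgeR 4.0.16 (R 4.3.3; filterByExpr, TMM, glmQLFit and glmQLFTest), with Benjamini-Hochberg adjustment over all genes tested and a threshold of 0.05. The main fit and some of the alternatives below were first tested on simulated counts of WT and RC/RC mice only. The fit of all 12 mice, the summed genes and the fits without 1 mouse were not. The simulated counts held no Y-linked effect. In the text, adjusted p always refers to this test unless another tool is named, and a value after ± of a log2 fold change is its SE. Alternatives were DESeq2 1.42.0, RLE factors, library size alone, other count filters, 1 fit of all 12 mice and limma 3.58.1 on log2(FPKM + 1). Others were a Y-linked covariate, sums over groups of genes that hold near copies, and leaving out each mouse. Between 18019819 and 24869454 reads were counted per mouse, and a bound against a group at 0 uses a floor of 3 counts per library on the TMM-scaled CPM, which covers counting error only. Replicates are separate mice, and p-values measure the spread between them.

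Named genes were members called in a comparison, the 2 highest by FPKM in each family, the 3 largest differences per comparison that did not pass, members near 0 in a whole group only, and, of each related list, called genes and the most abundant one. Other members are named where all values of a family or of the Y-linked split are described, and these and the counts without RC/RC mouse m139 were chosen after values were seen. The members, lists and tests were chosen with earlier results of these data known, so no list is independent evidence. Of the related lists, 1 regulator and a promoter motif are not reported here. Promoter windows are from RefSeq (GRCm38.p6) and matched 53 of 63 members by symbol. Near copies are transcripts of GENCODE vM39 at 90% identity or more over at least 100 bases, which 41 of 63 members have.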

Additional observations from a re-analysis of the deposited data

Results flagged for a closer look

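In 3 of 81 combinations of a member and a group, 1 mouse lay far from the other 3 of its group, and chance gives about 1 in 20. *Gstp1*, a pi-class glutathione transferase, stood at 112 CPM in RC/RC:*Casp1*KO mouse m42, against 80.3 to 83.6 CPM in the other mice of that group. *Sult5a1* stood at 1.72 CPM in the same mouse, against 3.22 to 3.38 CPM. *Gstz1*, which isomerizes maleylacetoacetate in tyrosine breakdown, stood at 196 CPM in WT mouse m2, against 242 to 250 CPM in the other WT mice. None of the 3 genes was called in a comparison.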

How the results depend on the processing

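No paired analysis was possible because the count columns carry a mouse number and no replicate number of the labels. In RC/RC against WT, members called higher numbered 4, and 5 with the Y-linked covariate, 3 with at least 10 counts in every mouse or in limma, and 1 to 4 when 1 mouse was left out. Members called lower numbered 1, and 4 in DESeq2, 0 with at least 10 counts (a filter that *Ugt2b38* cannot pass), 2 in 1 fit of 12 mice, 3 in limma, 4 with the covariate and 1 to 4 without 1 mouse. In the *Casp1*KO group against RC/RC, members called higher numbered 2, and 4 in DESeq2, 3 with RLE factors, 0 with at least 10 counts, 4 with the covariate and 1 to 4 without 1 mouse, and members called lower numbered 0, and 1 in DESeq2, 2 with the covariate and 0 to 3 without 1 mouse. In RC/RC:*Casp1*KO against WT, members called higher numbered 1, and 3 in DESeq2 and with the covariate, 0 with at least 10 counts, in 1 fit of 12 mice and in limma, and 0 to 1 without 1 mouse, and members called lower numbered 1, and 2 in DESeq2, 0 with at least 10 counts and in 1 fit of 12 mice, 6 with the covariate and 0 to 1 without 1 mouse. The causes were not tested, apart from the filter and the smaller number of mice.

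The 9 calls of the main comparisons kept their sign in all alternatives run on the gene itself. Summing groups of genes that hold near copies gave *Ugt2b37* the opposite sign in RC/RC against WT. The value was −2.71, that of all Ugt2b genes together, some of which are not its near copies. In RC/RC:*Casp1*KO against WT the sum of all Ugt1a genes (−0.59) had the opposite sign to *Ugt1a9*, *Ugt1a10* and *Ugt1a6a*. Among others, *Ugt2b37* and *Gstp2* also changed sign there (−0.79 and −0.25, the values of the Ugt2b and Gstp sums). Leaving out 1 mouse moved *Ugt2b37* in RC/RC against WT between −0.13 and 1.38 and *Ugt8a* in the *Casp1*KO group against RC/RC between −0.80 and 0.41. Low counts limit *Sult4a1*, *Ugt1a9*, *Sult2a3* and *Ugt1a6a*.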
